A study of Mus musculus with 18 samples.

Results

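The 10 genes described here carry dietary fat through the absorptive cell of the small intestine, from its uptake to the lipoprotein particle that leaves the cell. They are Apoa1, Apoa4, Apob, Apoc3, Mttp, Dgat1, Mogat2, Fabp1, Fabp2 and Cd36, taken by symbol from the tables of all 18 libraries. No cut on their values was used, but the set was chosen with earlier results of these data known. All 10 were listed at every stage, among 17759 genes in crypts, 17423 in day 1 enteroids and 17612 in day 3 enteroids, and all 10 passed the minimum mean normalized count of 10. The study asked how loss of the transcriptional co-repressor MTGR1 changes crypts and the enteroids grown from them. RNA was sequenced from 3 WT (Mtgr1+/+) and 3 Mtgr1-/- mice, with each mouse sampled as duodenal crypts, as day 1 enteroids (24 h after plating) and as day 3 enteroids (72 h), which gives 6 groups of 3 libraries. The mice were age-matched littermates of both sexes on standard chow, and enteroids came from mice 8 to 12 weeks old. Mtgr1-/- mice lack the gene throughout the body, so no group separates its loss in the epithelium from its loss elsewhere. Enteroids are epithelial cultures grown from crypts in Matrigel with a medium that contains R-spondin, and both genotypes had the same medium. They hold no villus and no supply of dietary fat.

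Absorptive cells take up fatty acids and monoacylglycerol from the gut lumen, rebuild triglyceride in the endoplasmic reticulum and load it onto apolipoprotein B to form chylomicrons. Smaller apolipoproteins join the particle before it leaves for the lymph. In the small intestine these genes are known as products of mature enterocytes, with levels that rise as cells move from the crypt onto the villus.

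Stretches of sequence just upstream of the genes are shown as a description. Their part in the genotype differences below was not tested. RefSeq promoter windows (GRCm38.p6, from 250 bases before to 50 bases after the start) were matched by symbol for 7 of the 10 genes, and not for Apoc3, Dgat1 and Mogat2. The sequences run 5′ to 3′ on the plus strand, on which all 5 of these genes lie, and end at the base before the first start annotated by GENCODE or RefSeq. They are 100 bases each, from chr9:46228480-46228579 (Apoa1), chr9:46240596-46240695 (Apoa4), chr12:7977548-7977647 (Apob), chr6:71199727-71199826 (Fabp1) and chr3:122894972-122895071 (Fabp2). Capitals mark a TATAAA match.
Apoa1: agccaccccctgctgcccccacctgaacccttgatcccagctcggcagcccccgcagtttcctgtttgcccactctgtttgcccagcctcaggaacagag
Apoa4: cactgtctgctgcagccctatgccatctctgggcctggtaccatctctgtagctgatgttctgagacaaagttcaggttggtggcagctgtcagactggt
Apob: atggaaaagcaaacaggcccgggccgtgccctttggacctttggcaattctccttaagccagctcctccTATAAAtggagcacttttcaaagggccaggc
Fabp1: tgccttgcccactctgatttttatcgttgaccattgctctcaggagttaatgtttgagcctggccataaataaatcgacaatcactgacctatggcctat
Fabp2: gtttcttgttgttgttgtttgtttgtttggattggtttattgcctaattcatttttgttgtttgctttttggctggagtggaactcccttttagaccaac

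On both strands, TATAAA was found in 2 of the 7 windows. In Apob it lay 31 to 26 bases before the first annotated start. In Fabp1 it lay 30 to 25 bases before the RefSeq start, inside a first exon that GENCODE draws longer, so it is not in the bases shown. TATAAA was present in 13.6% of all 32851 promoter windows of the same length. None of the 7 windows held the GATA factor motif AGATAA (11.2% of all windows), the HNF4 motif CAAAGTCCA (0.475%), the HNF1 palindrome (0.0396%) or the nuclear receptor direct repeat DR1 (0.0396%). These are exact letter matches in short windows, and the absence of a match says only that those letters are not there.

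The libraries held 22035316 to 29661084 reads on genes. Mitochondrial genes took 13.4% of the reads in WT crypt library 3 and 11.7% in Mtgr1-/- crypt library 3, against 5.67% to 6.99% in the other 16 libraries. WT crypt library 3 also had the highest summed level of 6 macrophage and leukocyte markers, 257 RPM (reads on a gene scaled to the library's total reads on genes) against 12.4 to 32.6 in the other 5 crypt libraries. Reads on the targeted gene, listed as Cbfa2t2, had means of 577 ± 48.3 normalized counts in WT and 566 ± 119 in the crypt libraries labelled Mtgr1-/- (SD, n = 3), and its log2 fold change was -0.05 in crypts, 0.37 at day 1 and 0.06 at day 3 (adjusted p = 0.917, 0.0557 and 0.686, limma). The part of the gene that the allele lacks is not given in the sources used here, so this level does not check the labels. Olfm4, a stem cell gene, separated the genotypes in crypts, with at least 25673 normalized counts in every WT library and at most 512 in every Mtgr1-/- library.

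Brush border markers of enterocytes were present at every stage. Of 10 such markers, 9 rose and 1 (Sis, sucrase-isomaltase) fell in day 1 Mtgr1-/- enteroids, and 9 rose and none fell at day 3. Their summed share ran from 1.75% to 2.00% of reads in WT crypts and 1.09% to 1.66% in Mtgr1-/- crypts, from 0.824% to 0.978% against 1.02% to 1.34% at day 1, and from 0.618% to 0.733% against 0.776% to 1.18% at day 3. The sum was thus lower in every Mtgr1-/- crypt library than in any WT one, and from crypts to day 1 it went down in all 3 Mtgr1-/- mice. By gene, however, 0 of the 10 were called higher and 1 lower in crypts. Their median log2 fold change there (Mtgr1-/- over WT) was 0.34, against 0.01 for all genes. The lower crypt sum was thus not a fall of the list as a whole. All 6 villus tip markers rose at day 1 and at day 3. Over the same days, 5 of 5 goblet, 6 of 6 Paneth and 6 of 6 stem cell markers fell. What part these shifts have in the results below was not tested. In bulk RNA, more cells of a type and more RNA per cell cannot be told apart.

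In crypts, none of the 10 genes passed the test between the genotypes, while in day 1 and day 3 enteroids all 10 were higher in Mtgr1-/- than in WT. Genotypes were compared with limma on log2(normalized count + 1), a scale that understates the change of genes with low counts, with Benjamini-Hochberg adjustment over all genes tested and a threshold of 0.05. Among the 12980 genes tested in crypts, 4.73% passed, with 1.58% higher and 3.15% lower. Of the 10 genes, 2 had an unadjusted p under 0.05 there (limma), 0 passed with edgeR on recovered reads, and 2 passed with DESeq2, as given below. At day 1, 58.9% of 12587 genes passed, 30.0% higher and 28.9% lower. At day 3, 59.0% of 12782 genes passed, 29.9% higher and 29.1% lower. A call in enteroids was thus common among all genes.

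The log2 fold changes of the 10 genes (Mtgr1-/- over WT, below called the log2 difference) in crypts ran from -0.95 (Apoc3) to 0.76 (Fabp2), with a median of 0.23. At day 1 they ran from 1.21 (Fabp1) to 2.82 (Apoa1), with a median of 2.01. At day 3 they ran from 1.08 (Dgat1) to 2.49 (Apoa1), with a median of 1.80. The median over all genes tested lay at 0.01 in crypts, -0.01 at day 1 and 0.00 at day 3. In both sets of enteroids, every Mtgr1-/- library lay above every WT library for all 10 genes, an arrangement that 34.2% of all genes showed at day 1 and 34.6% at day 3. The reverse order held for 33.9% and 34.2% of all genes, so that groups did not overlap for 68.1% at day 1 and 68.8% at day 3. By size of log2 fold change, Apoa1 ranked 156 from the top of the genes tested at day 1 and Fabp1, the least changed member, ranked 1001.

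**Figure D1:**
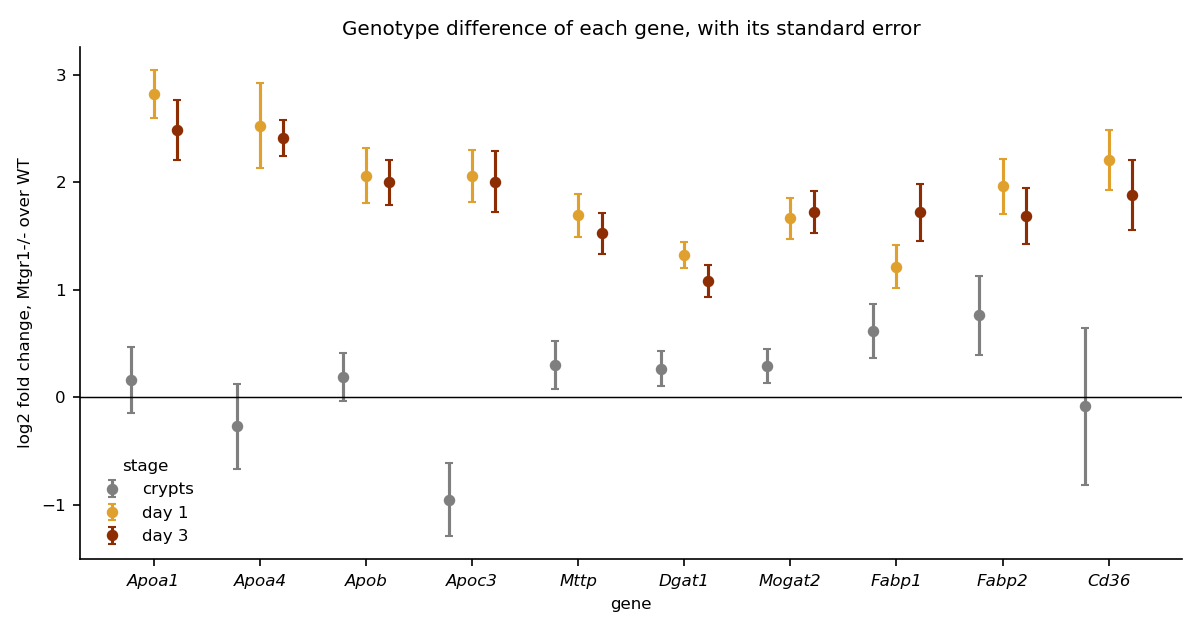
Log2 fold change of each gene, Mtgr1-/- over WT, with its standard error (limma, n = 3 libraries a group), in crypts (grey), day 1 enteroids (orange) and day 3 enteroids (brown). The crypt values straddle 0, and the day 1 and day 3 values all lie above 1.

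Apolipoproteins A-I and A-IV, the products of Apoa1 and Apoa4, coat the surface of chylomicrons, and apolipoprotein A-I is also the main protein of high-density lipoprotein. In crypts, the normalized counts of Apoa1 were 48389, 47338 and 80312 in WT mice 1, 2 and 3 and 53215, 53026 and 90973 in Mtgr1-/- mice 1, 2 and 3. Mouse 3 was the highest in each genotype and the groups overlapped. The log2 difference was 0.16 ± 0.31 (SE, adjusted p = 0.839, limma). At day 1, WT enteroids had 18712, 14490 and 13454 normalized counts of Apoa1 and Mtgr1-/- enteroids had 110765, 81311 and 141494. No WT value came near the Mtgr1-/- values, and the log2 difference was the largest of the 10 genes on that day, 2.82 ± 0.22 (adjusted p = 0.000116, limma). At day 3, the counts were 10253, 9354 and 12049 in WT and 45596, 97087 and 45995 in Mtgr1-/- enteroids. Mtgr1-/- mouse 2 stood above its group, and the log2 difference was 2.49 ± 0.28 (adjusted p = 0.000221, limma).

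The crypt values of Apoa4 were 66274, 55550 and 129576 in WT and 69905, 43772 and 88922 in Mtgr1-/- mice. The groups overlapped and WT mouse 3 was the highest, so that the log2 difference of -0.27 ± 0.40 (adjusted p = 0.777, limma) became 0.09 without that library and 0.01 without Mtgr1-/- mouse 2. In day 1 enteroids, WT values were 18554, 14773 and 15881 and Mtgr1-/- values were 137329, 45685 and 131784. Mtgr1-/- mouse 2 lay well below the other Mtgr1-/- mice, yet above all WT values. Expressed as a log2 difference, this was 2.52 ± 0.39 (adjusted p = 0.00133, limma), and 1.93 with quantile normalization. In day 3 enteroids, the values were 10039, 9218 and 9376 in WT and 45212, 66716 and 43123 in Mtgr1-/- mice, a log2 difference of 2.41 ± 0.16 (adjusted p = 2.38e-05, limma).

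Apob encodes the structural protein around which each chylomicron is built. Its crypt counts were 52559, 45504 and 63150 in WT and 71522, 47764 and 65779 in Mtgr1-/- mice, overlapping, with a log2 difference of 0.19 ± 0.22 (adjusted p = 0.704, limma). At day 1, Apob had 46065, 32408 and 37241 counts in WT and 203870, 111757 and 176462 in Mtgr1-/- enteroids. The log2 difference was 2.06 ± 0.25 (adjusted p = 0.000548, limma). At day 3, WT had 24565, 15086 and 20994 and Mtgr1-/- had 73474, 98938 and 68326, a log2 difference of 2.00 ± 0.21 (adjusted p = 0.000161, limma).

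Apoc3 encodes an apolipoprotein that inhibits lipoprotein lipase and slows clearance of the particles from blood. It was the only member whose groups did not overlap in crypts, and it lay lower in Mtgr1-/-: 3662, 3216 and 7243 normalized counts in WT against 1824, 2056 and 3140. Among all genes, 25.5% had groups that did not overlap in crypts, with Mtgr1-/- below WT for 13.5%. The log2 difference of -0.95 ± 0.34 did not pass the test (adjusted p = 0.191, limma), while it passed with DESeq2 on recovered reads (adjusted p = 0.0262). In day 1 enteroids the order was turned, with 468, 444 and 347 counts in WT and 2278, 1166 and 1964 in Mtgr1-/- mice. Expressed as a log2 difference, this was 2.06 ± 0.24 (adjusted p = 0.000468, limma). In day 3 enteroids, WT mice had 509, 401 and 304 and Mtgr1-/- mice had 1619, 2323 and 1068 (log2 difference 2.00 ± 0.28, adjusted p = 0.000692, limma).

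**Figure D2:**
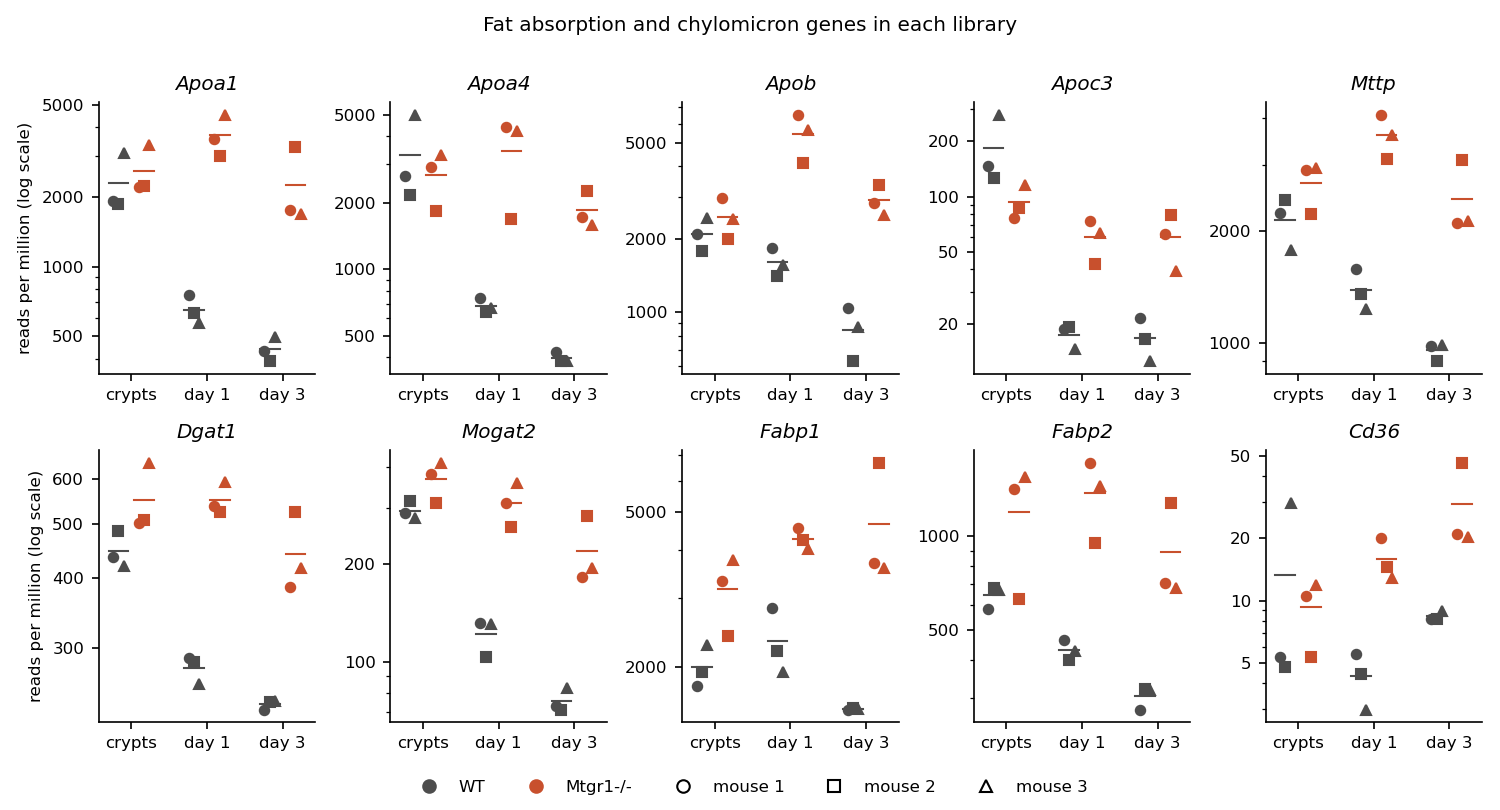
Scaled reads, RPM (log scale, with its own range for each gene) of the 10 genes in each of the 18 libraries, WT in grey and Mtgr1-/- in orange-red, with the symbol showing the mouse and the short line the mean of 3 libraries. The genotypes mix in crypts for most genes and separate in day 1 and day 3 enteroids for all 10.

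Mttp encodes the large subunit of the microsomal triglyceride transfer protein, which loads lipid onto apolipoprotein B. Crypts had 55837, 61531 and 45731 normalized counts in WT and 69727, 52809 and 79731 in Mtgr1-/- mice. The groups overlapped (log2 difference 0.30 ± 0.22, adjusted p = 0.529, limma). Day 1 enteroids had 39338, 31191 and 29250 counts in WT and 127423, 84622 and 112186 in Mtgr1-/- mice, a log2 difference of 1.69 ± 0.20 (adjusted p = 0.000443, limma) that came to 1.01 with quantile normalization. Day 3 enteroids had 23334, 21520 and 24029 in WT and 54789, 91007 and 57671 in Mtgr1-/- mice, a log2 difference of 1.52 ± 0.19 (adjusted p = 0.000395, limma). On neither day did a Mtgr1-/- library fall among the WT values.

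Mogat2 and Dgat1 encode the acyltransferases that add fatty acids to monoacylglycerol and then to diacylglycerol. For Mogat2, crypt counts were 7231, 7988 and 7177 in WT and 9167, 7387 and 11180 in Mtgr1-/- mice (log2 difference 0.29 ± 0.16, adjusted p = 0.387, limma). Its day 1 counts were 3290, 2367 and 3089 in WT and 9650, 7082 and 11166 in Mtgr1-/- enteroids, a log2 difference of 1.66 ± 0.19 (adjusted p = 0.000389, limma). Its day 3 counts were 1717, 1706 and 2008 against 4775, 8356 and 5315, a log2 difference of 1.72 ± 0.19 (adjusted p = 0.000224, limma). On both days all Mtgr1-/- values of Mogat2 lay above all WT values, whereas in crypts Mtgr1-/- mouse 2 lay among the WT values. Dgat1 had the smallest standard error of the 10 genes in both sets of enteroids. In crypts it had 10938, 12330 and 10835 counts in WT and 12049, 12105 and 17378 in Mtgr1-/- mice (log2 difference 0.26 ± 0.16, adjusted p = 0.451, limma). At day 1 it had 7179, 6495 and 6109 in WT and 16778, 14270 and 18473 in Mtgr1-/- enteroids, a log2 difference of 1.32 ± 0.12 (adjusted p = 0.000189, limma). At day 3 it had 5499, 5757 and 5843 against 10033, 15456 and 11320, a log2 difference of 1.08 ± 0.15 (adjusted p = 0.000602, limma), the smallest of the members on that day.

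Fabp1 and Fabp2 encode the liver and intestinal fatty acid-binding proteins, which carry fatty acids through the cytosol of enterocytes. Fabp1 had 44728, 49209 and 58848 counts in WT crypts and 79783, 57096 and 101777 in Mtgr1-/- crypts. Only Mtgr1-/- mouse 2 fell among the WT values, and the log2 difference of 0.61 ± 0.25 did not pass with limma (adjusted p = 0.258) but did with DESeq2 (adjusted p = 0.0389). At day 1, Fabp1 had 70644, 50303 and 45918 counts in WT and 141487, 114951 and 125368 in Mtgr1-/- enteroids. The log2 difference of 1.21 ± 0.20 was the smallest of the members at day 1 (adjusted p = 0.00176, limma), and with quantile normalization it was 0.51, still called. At day 3, the 3 WT libraries were close to each other, at 36659, 37678 and 37757, while Mtgr1-/- libraries had 96510, 197693 and 97611. The log2 difference was 1.72 ± 0.27 (adjusted p = 0.00103, limma).

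Fabp2 showed the largest crypt difference in the direction of the enteroids, and it was uneven. WT crypts had 14556, 17384 and 17278 counts, whereas Mtgr1-/- crypts had 34228, 14887 and 42001. Mtgr1-/- mouse 2 lay among the WT values and the log2 difference was 0.76 ± 0.37 (adjusted p = 0.333, limma). Without that library it was 1.21 and passed (adjusted p = 0.0133, limma). Day 1 counts were 11513, 9179 and 10097 in WT and 53878, 25828 and 45298 in Mtgr1-/- enteroids, a log2 difference of 1.96 ± 0.26 (adjusted p = 0.000655, limma). Day 3 counts were 6524, 7705 and 7717 against 18391, 37793 and 18463, a log2 difference of 1.68 ± 0.26 (adjusted p = 0.00103, limma).

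Cd36 encodes a membrane receptor for fatty acids and had the lowest level of the 10 genes per kilobase of transcript in all 6 groups. It is also a gene of macrophages and of endothelium. In crypts it had 133, 122 and 768 normalized counts in WT and 253, 127 and 323 in Mtgr1-/- mice. The high value was WT mouse 3, the library with the high level of macrophage and leukocyte markers, whose summed level of 6 endothelial markers was also the highest (12.2 RPM against 5.66 to 7.27). With it the log2 difference was -0.09 ± 0.73 (adjusted p = 0.966, limma) and without it 0.77 (adjusted p = 0.391, limma). The sign also turned without Mtgr1-/- mouse 2 (0.30), so the crypt data give no direction for Cd36. What part other cells have in it was not tested. At day 1, Cd36 had 137, 102 and 70.4 counts in WT and 629, 396 and 399 in Mtgr1-/- enteroids (log2 difference 2.21 ± 0.28, adjusted p = 0.000597, limma). At day 3, it had 192, 196 and 217 in WT and 546, 1368 and 550.2 in Mtgr1-/- enteroids (log2 difference 1.88 ± 0.32, adjusted p = 0.00173, limma). The same 6 macrophage and leukocyte markers summed to 3.00 to 11.2 RPM in WT and 2.81 to 20.1 in Mtgr1-/- libraries at day 1, and to 1.85 to 2.96 against 3.67 to 35.1 at day 3, where 2 of the 4 tested were called higher. The highest of these sums was that of Mtgr1-/- mouse 3 on both days. The highest Cd36 values were those of Mtgr1-/- mouse 1 at day 1 and mouse 2 at day 3. What part other cells have in the enteroid values of Cd36 was not tested either.

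The normalized counts of Mtgr1-/- mouse 2 were the lowest of the Mtgr1-/- group at day 1 for all 10 genes, where 40.1% of all genes had that order. In RPM, however, the lowest at day 1 was mouse 3 for Fabp1 (4025 against 4235 in mouse 2) and Cd36 (12.8 against 14.6). At day 3, the values of Mtgr1-/- mouse 2 were the highest of the group for all 10 on both scales, against 39.4% of all genes in normalized counts. The same mouse had the highest summed level of Paneth cell markers of its group at every stage, with 1850 RPM against at most 74.7 in mice 1 and 3 in crypts, 243 against 24.0 and 44.1 at day 1, and 297 against 67.1 and 126 at day 3. Its villus tip markers were the lowest of the group at day 1, at 445 RPM against 1611 and 1214. They were again the lowest at day 3, at 349 RPM against 487 and 467, where the 10 genes were the highest. Its brush border markers were the lowest at day 1, at 10173 RPM against 11554 and 13380. At day 3 its brush border markers were the highest, at 11843 RPM against 7762 and 8354. The part of these differences in the values of the 10 genes was not tested. Leaving out any 1 library kept all 10 genes called higher at day 1 and at day 3.

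Levels at different stages were compared within each mouse as shares of all reads on genes, with no test, since each stage was normalized on its own. The 10 genes together took 1.21%, 1.18% and 1.63% of reads in the crypts of WT mice 1, 2 and 3. In the enteroids of the same mice they took 0.867%, 0.705% and 0.683% at day 1 and 0.505%, 0.452% and 0.497% at day 3. Each WT mouse thus went down at each step. In Mtgr1-/- mice they took 1.67%, 1.22% and 1.85% in crypts, 2.58%, 1.79% and 2.45% at day 1, and 1.35%, 2.09% and 1.29% at day 3. All 3 Mtgr1-/- mice went up from crypts to day 1, and from there 2 went down while mouse 2 went up.

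**Figure D3:**
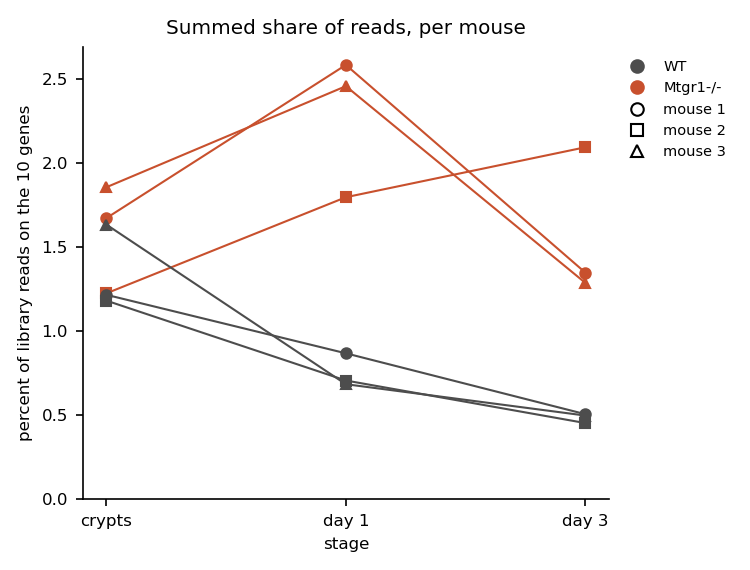
Percent of all reads on genes that fell on the 10 genes together, in each mouse (lines join the libraries of 1 mouse), at the 3 stages. The WT lines fall to about 0.5% at day 3, and the Mtgr1-/- lines rise from crypts to day 1 and end between 1.29% and 2.09%.

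By gene, 8 of the 10 had a lower share of reads at day 1 than in crypts in all 3 WT mice, all but Fabp1 and Cd36, where 23.8% of all genes did so and 50.8% were higher in all 3. The median day 1 to crypt ratio in WT was 0.13 for Apoc3, 0.28 for Apoa4, 0.34 for Apoa1 and 0.79 for Apob. In Mtgr1-/- mice only Apoc3 and Mogat2 were lower at day 1 in all 3 mice, and Apoa1, Apob, Mttp, Fabp1 and Cd36 were higher in all 3, against 44.3% of all genes lower and 22.6% higher. The median ratio there was 2.20 for Apob, 1.91 for Cd36 and 0.54 for Apoc3. At day 3, 9 of the 10 genes lay below the crypt share in all 3 WT mice, all but Cd36, against 22.3% of all genes, with 56.0% of all genes higher. From day 1 to day 3, 8 of the 10 went down in all 3 WT mice, all but Apoc3 and Cd36 (24.2% of all genes down and 36.6% up), and Apob, Mttp and Dgat1 went down in all 3 Mtgr1-/- mice (12.5% down and 28.6% up). The day 3 to crypt ratio of Mtgr1-/- mice had a median of 0.79 for Apoa1, 1.03 for Apob and 1.99 for Cd36, where Cd36 was the only member higher in all 3 mice (24.8% of all genes) and Apoc3 and Mogat2 were lower in all 3 (21.0%).

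Per kilobase of transcript, Fabp1 was first, Apoa1 next and Cd36 last in all 6 groups. The order of the others moved, with Apoc3 at rank 6 in WT crypts and rank 9 in the other 5 groups, and Apob at rank 9 in WT crypts and rank 6 in day 1 Mtgr1-/- enteroids. In WT crypts, Fabp1 had a mean of 3616 RPM per kilobase, Apoa1 2224, Apoa4 1809, Fabp2 668 and Mttp 540. The ranges of Apoa1 and Apoa4 overlapped across mice, as did those of Fabp2 and Mttp. Within every WT crypt library, however, Apoa1 lay above Apoa4 and Fabp2 above Mttp. Apoc3 at 260, Dgat1 at 237, Mogat2 at 165, Apob at 152 and Cd36 at 3.91 followed. The ranges of Apoc3 and Dgat1 overlapped, as did those of Mogat2 and Apob, and in both pairs the order differed between mice. In WT enteroids at day 1 the mean of Fabp1 was 4201 and that of Apoa1 629. In Mtgr1-/- enteroids at day 1 the mean of Fabp1 was 7717, that of Apoa1 3573, that of Apob 391 and that of Apoc3 84.2.

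Whether the genotype difference itself changed between stages was tested in 1 limma fit that joined the 3 stages and treated each mouse as a random effect. The difference was larger at day 1 than in crypts for 8 of the 10 genes, where 38.1% of all genes passed, 18.7% higher and 19.4% lower. The change was largest for Apoc3 (3.01 ± 0.48 on the log2 scale, SE, adjusted p = 0.000871, limma), followed by Apoa4 and Apoa1. Fabp1 (0.60 ± 0.37, adjusted p = 0.217, limma) and Fabp2 (1.20 ± 0.49, adjusted p = 0.064, limma) did not pass, but Fabp2 did without Mtgr1-/- mouse 2 (1.06, adjusted p = 0.000669). The call of Cd36 (2.29, adjusted p = 0.033, limma) was lost without WT mouse 3 (1.19, adjusted p = 0.141) and without any 1 of the 3 Mtgr1-/- mice, and its value rose to 2.92 without WT mouse 1. That of Apob (1.87, adjusted p = 0.0018, limma) was lost when mouse 3 of both genotypes was left out, a setting chosen after seeing the data (1.71, adjusted p = 0.0594).

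Between crypts and day 3, the difference was larger for 8 of the 10 genes, all but Fabp2 (0.92, adjusted p = 0.163, limma) and Cd36 (1.97, adjusted p = 0.0726, limma), where 29.7% of all genes passed, 15.9% higher and 13.9% lower. Without Mtgr1-/- mouse 2, the value of Fabp2 was 0.12 and that of Cd36 1.14, and without WT mouse 3 that of Cd36 was 1.16. Apoc3 again changed most (2.95, adjusted p = 0.001, limma). The call of Fabp1 (1.11, adjusted p = 0.0365, limma) was lost without any 1 WT mouse and without Mtgr1-/- mouse 2 (0.54, adjusted p = 0.153), and that of Mttp without WT mouse 2. Dgat1 lost its call without WT mouse 1 or WT mouse 2. Without WT mouse 2, 5 of the 10 genes passed. Between day 1 and day 3, 0 of the 10 genes passed (log2 changes of -0.33 to 0.50, adjusted p from 0.802 to 0.991, limma, 0 at an unadjusted p under 0.05), where 0.0298% of all genes did, 0.0223% higher and 0.00745% lower.

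Other genes of fat handling, in 9 lists of 138 genes, were called as follows. The lists were chosen by role but with earlier results of these data known, so their shares are a description and not independent support. In crypts 2 of the 119 tested passed (1.68%), both lower, which were Mlxipl, a carbohydrate-responsive transcription factor (-1.04, adjusted p = 0.0138, limma), and Ffar1, a fatty acid receptor of enteroendocrine cells (-4.27, adjusted p = 0.027, limma), the latter named after its values were seen. Enteroendocrine markers fell in the same crypts, 6 of 6, and their part in the Ffar1 value was not tested. At day 1, 84 of 118 rose (71.2%) and 11 fell (9.32%), where 30.0% of all genes rose and 28.9% fell. At day 3, 80 of 117 rose (68.4%) and 11 fell (9.40%), where 29.9% of all genes rose and 29.1% fell. The counts by list below have the same background.

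In chylomicron assembly and export from the endoplasmic reticulum, 14 of 15 genes rose at day 1 and 14 of 15 at day 3. The exception on both days was Sar1a (0.00 and -0.08), a small GTPase of the vesicle coat. Pla2g12b, needed for lipoprotein lipidation, rose by 1.72 and 1.67 on the log2 scale at day 1 and day 3, and Sec24d, a coat subunit, by 1.53 and 1.24. Among other apolipoproteins, 4 of 8 rose at day 1 and 3 of 8 at day 3. Apoc2, the activator of lipoprotein lipase, was at 2.74 and 2.66. Clu, which the paper used as a marker of revival stem cells, was at 2.54 and 4.30. In uptake and activation of fatty acids, 9 of 12 rose on each day, and Slc27a4, a fatty acid transporter with acyl-CoA synthetase activity, rose by 2.10 and 1.82.

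In triglyceride resynthesis, 10 of 13 genes rose at day 1 and 10 of 13 at day 3. Agpat2, which makes phosphatidic acid, rose by 2.00 and 1.79 and Dgat2, the other diacylglycerol acyltransferase, by 1.59 and 2.36. Gpam, the mitochondrial glycerol phosphate acyltransferase, fell by 0.54 and 0.80. In the list of lipid droplets and lipolysis, 10 of 14 rose at day 1 and 11 of 13 at day 3, with Cidec, a droplet protein, at 1.79 and 2.61.

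In the cholesterol list, 9 of 13 rose at day 1 and 8 of 13 at day 3. Soat2, the cholesterol acyltransferase of enterocytes, rose by 1.69 and 1.07, and its relative Soat1 fell by 1.00 and 1.14. In phospholipid supply the list was mixed, with 4 of 8 higher and 3 lower at day 1 and 5 higher and 2 lower at day 3. Lpcat3 rose by 1.53 and 1.08 while Lpcat1 fell by 1.95 and 1.16. Of 4 lipid-sensing receptors, 2 rose and 1 fell at day 1, and 1 rose and 1 fell at day 3. Of 31 transcription regulators, 22 rose and 3 fell at day 1, and 19 rose and 3 fell at day 3. Creb3l3, an endoplasmic reticulum factor of lipid genes, rose by 1.75 and 2.05, Maf by 2.01 and 1.97 and Ppara by 1.23 and 1.53, and Nr2f2 fell by 1.19 and 1.09.

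**Figure D4:**
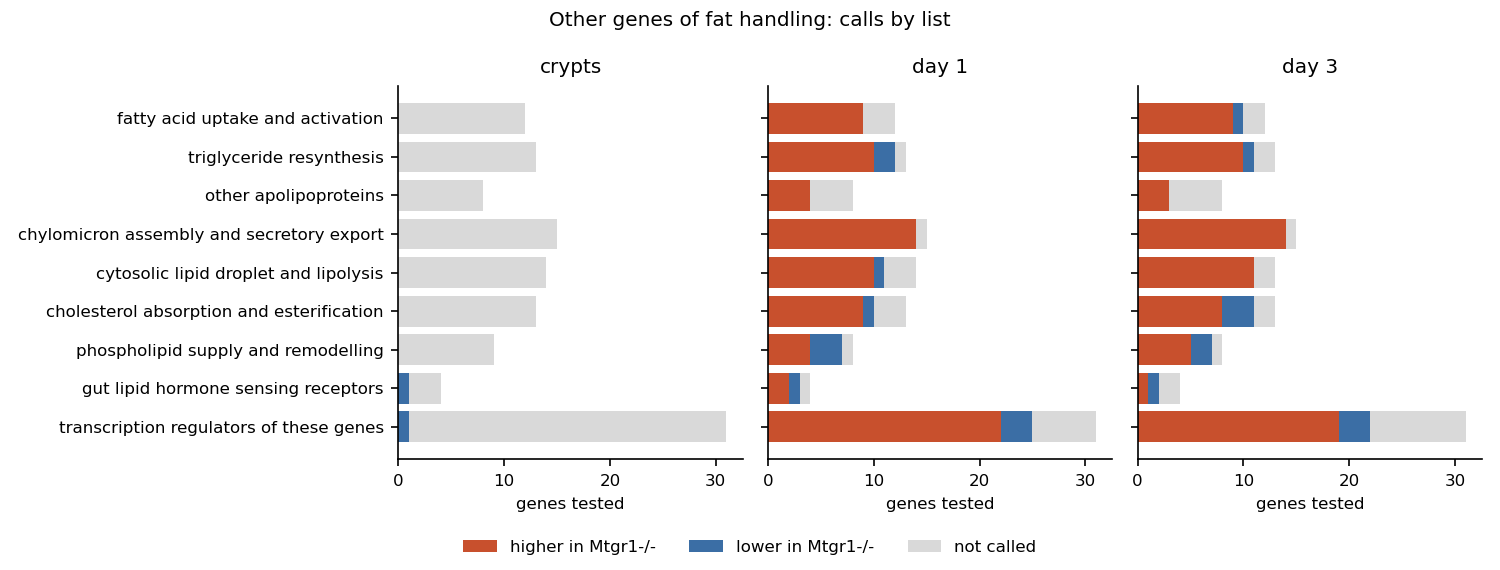
Number of genes called higher, called lower or not called in Mtgr1-/- (limma, adjusted p of 0.05) in each list of fat-handling genes, in crypts, day 1 and day 3 enteroids. Calls are nearly absent in crypts, and genes called higher make up most of the assembly list, 14 of 15, on both days in culture.

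Apoa1, Apoc3 and Apoa4 lie side by side on mouse chromosome 9 (GRCm38, GENCODE M21), at chr9:46228580-46230466 on the plus strand, chr9:46232933-46235636 on the minus strand and chr9:46240696-46243459 on the plus strand. All 3 rose in enteroids, as above. Of the other genes with a start within 250 kb of that of Apoa1, 3 were tested (Sik3, Zpr1 and Bud13), and none was called higher in either set of enteroids. Bud13, a splicing factor gene, was lower at day 1 (-0.48, adjusted p = 0.00683, limma), as was Zpr1 (-0.44, adjusted p = 0.0123, limma). Sik3, a kinase gene named after its values were seen, was lower at day 3 (-0.27, adjusted p = 0.0146, limma). Apoa5, the remaining apolipoprotein gene of the cluster, was below the minimum count in crypts and was not tested. The other members lie elsewhere in the genome. On the same build, Apob is at chr12:7977648-8016835 and Fabp1 at chr6:71199827-71205023, both on the plus strand. Mttp (chr3:138089854-138144968, minus strand) and Fabp2 (chr3:122895072-122899506, plus strand) share a chromosome. On the minus strand, Dgat1 is at chr15:76502015-76511953, Mogat2 at chr7:99219084-99238619 and Cd36 at chr5:17781690-17888801.

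**Figure D5:**
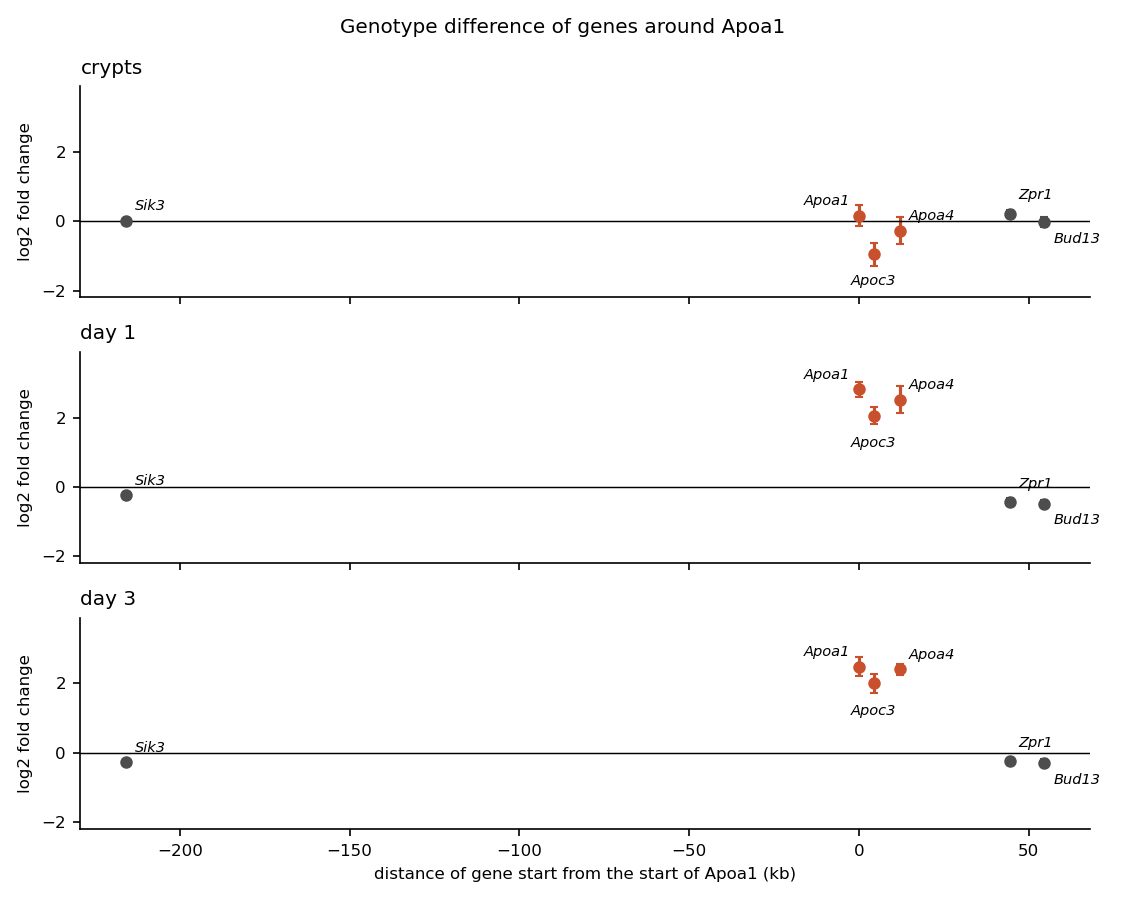
Log2 fold change, Mtgr1-/- over WT, with its standard error, against the distance of each gene's start from that of Apoa1 in kilobases, in crypts, day 1 and day 3 enteroids. Apoa1, Apoc3 and Apoa4 lie at or above 2.00 in enteroids, and the 3 tested neighbours lie at or below 0.22 at all stages.

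The gene outside the 10 members with the most similar profile to each was found from the root mean square difference of centred log2 shares over 18 libraries, among 9871 genes, as a description. The closest was Stap2 for Dgat1 (0.101), Ptprh for Mogat2 (0.128), Heph, an iron oxidase of enterocytes, for Mttp (0.149), Rbp2, a retinol-binding protein of enterocytes, for Fabp2 (0.207), Pxdc1 for Apob (0.241), Cdc42ep2 for Fabp1 (0.249) and Gpt for Apoa1 (0.261). The other members had no such gene as close, with 0.390 for Apoa4 (H2-Q1), 0.400 for Apoc3 (Sectm1b) and 0.560 for Cd36 (Ppm1j). These differences were not scaled to how much each member itself varied. The root mean square of the member's own centred profile ran from 0.481 for Dgat1 to 1.27 for Apoc3, with 0.606 for Fabp1, 1.15 for Apoa1 and 1.21 for Apoa4. Members were left out of that search, and among them the closest to Apoa4 was Apoa1 (0.354), nearer than H2-Q1. Apoa4 was the only member for which this held. For each of the others, genes outside the 10 lay closer than its closest member, from 3 such genes for Fabp2 to 205 for Dgat1. For Apoa1, whose closest member was Apoa4, there were 5.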

How the data were processed

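RNA from crypts, day 1 and day 3 enteroids was sequenced by the authors as stranded mRNA libraries (single reads of 50 bases), trimmed with fastp 0.20.0, quantified with Salmon 1.3.0 on GENCODE M21 and summed to genes with tximeta 1.4.5 in R 3.6.3. The authors divided the counts by a DESeq2 1.26.0 size factor within each stage, and this deposited signal, the normalized count, was used here. Genes with almost no counts had been left out by the authors. Columns with the authors' own fold changes and p-values were not used. A single factor per library gave whole reads for 100% of values within 0.01 read, so library totals and count models could be had.

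Genotypes were compared per stage with limma 3.58.1 (R 4.3.3, lmFit and eBayes with trend, two-sided) on log2(normalized count + 1) for genes whose mean reached 10, with Benjamini-Hochberg adjustment over every gene tested. The change of the difference between stages was fitted on 13430 genes across the 18 libraries, each mouse being a random effect (correlation 0.01). On simulated data, 200 of 200 genes changed by 4-fold were recovered at each stage, where the crypt run held 12929 genes, that of day 1 12533 and that of day 3 12721. Among the unchanged genes, 10, 10 and 11 were called in these runs. The simulation used the same spread for all genes and no smaller change, so it does not show whether differences of the size seen in crypts would be found. Alternatives included edgeR 4.0.16 and DESeq2 1.42.0 on recovered reads, other scalings and filters, a replicate block and leaving out each library. Crypts and enteroids of 1 number came from the same mouse, whereas by their labels WT and Mtgr1-/- mice share only a number. In their values, crypt library 3 of both genotypes shared the high mitochondrial share given above. Both also had more erythroid (red blood cell) marker reads, 6.87 RPM in WT and 6.20 in Mtgr1-/-, against at most 0.320 in the other crypt libraries. Deviations of same-numbered mice correlated by 0.116, 0.231 and 0.216 at day 1, all above a limit of 0.1. The same mice did not all reach that limit in crypts or at day 3, so the correlations do not settle whether the numbers pair the genotypes. The main fits used no pairing, and at day 1 the block changed no call of the 10 genes. With 3 mice against 3, an exact permutation test cannot give a p below 0.1, so none was used.

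Besides the 10 genes, those named were up to 4 per list, direction and stage by size of change (6 for transcription regulators), with an adjusted p under 0.05 and a mean of at least 50, neighbours within 100 kb of Apoa1 and the closest profile to each member. Members and lists were chosen with earlier results of these data known. Neighbours were placed by GENCODE M21, since the tables hold no coordinates. Protein identity was not computed.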

Additional observations from a re-analysis of the deposited data

Results flagged for a closer look

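The genotype difference of the genes below was not the same at 2 stages by a test of that difference (limma, all 18 libraries, adjusted p below 0.05). From crypts to day 1 it changed, on the log2 scale, by 3.01 for Apoc3, 2.79 for Apoa4, 2.66 for Apoa1, 2.29 for Cd36, 1.87 for Apob, 1.39 for Mttp, 1.37 for Mogat2 and 1.05 for Dgat1. From crypts to day 3 it changed by 2.95 for Apoc3, 2.68 for Apoa4, 2.33 for Apoa1, 1.81 for Apob, 1.43 for Mogat2, 1.22 for Mttp, 1.11 for Fabp1 and 0.82 for Dgat1. The crypt difference was below 0 for Apoc3 (-0.95), Apoa4 (-0.27) and Cd36 (-0.09), none of which passed, and above 0 in enteroids for all 3. Most brush border markers and all 6 villus tip markers were also higher in Mtgr1-/- enteroids, and their part in the changes was not tested.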

How the results depend on the processing

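At day 1 and at day 3, 180 of 180 values of the 10 genes kept direction and call under every alternative run, and all 10 stayed called higher without any 1 library (10 to 10). Sizes moved by over 1.5 times on the fold scale with quantile normalization at day 1, for Fabp1 (log2 difference 0.51 in place of 1.21), Mttp (1.01 in place of 1.69) and Apoa4 (1.93 in place of 2.52), and for no other of the 10 genes on either day. In crypts, library weights called 2 genes higher (Fabp1, Fabp2) and 1 lower (Apoc3), DESeq2 called 1 higher and 1 lower, and 1 was called lower with the replicate block and without mouse 3 of both genotypes, a setting chosen after seeing the data. Same-numbered mice did not all reach the limit of 0.1 in crypts (correlations of 0.0764, 0.274 and 0.346, with WT library 1 closer to Mtgr1-/- library 2, at 0.201) or at day 3 (-0.0067, -0.0023 and -0.0156). The block also gave calls for Fabp2 between crypts and day 1 (adjusted p = 0.0458, limma) and Cd36 between crypts and day 3 (adjusted p = 0.0219, limma), and changed no other call of the 10 genes. Leaving out 1 crypt library gave 0 to 1 genes higher, that 1 being Fabp2 without Mtgr1-/- mouse 2.

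Among genes of the lists in crypts, 1 was higher without mouse 3, with a minimum of 10 in every library of 1 genotype, with TMM and with quantile normalization, 2 with the block, 10 (and 4 lower) with DESeq2 and 12 (and 10 lower) with library weights. Leaving out 1 library gave 0 to 4 higher and 0 to 2 lower in crypts, with 4 without Mtgr1-/- mouse 2 and 0 lower without WT mouse 1 or 2, and 6 to 12 lower at day 3, with 6 without WT mouse 2. For the change of the difference, leaving out 1 mouse gave 7 to 8 genes from crypts to day 1, 5 to 8 from crypts to day 3 and 0 to 1 lower from day 1 to day 3, where Fabp2 passed without Mtgr1-/- mouse 2 (-0.94, adjusted p = 0.0179, limma). Without mouse 3 of both genotypes, Fabp1 lost its call from crypts to day 3 and, on RPM values, Cd36 lost it from crypts to day 1 (adjusted p = 0.0533, limma).

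Signs turned only for differences that were not called. In crypts, Apoa4 was 0.0107 with quantile normalization and 0.051 with weights, and Cd36 0.79 with weights and 0.49 without mouse 3. Without 1 library, Apoa1 ran from -0.10 to 0.41, Apoa4 from -0.52 to 0.0949 and Cd36 from -0.55 to 0.77. From day 1 to day 3, values on the RPM scale were 0.0049 for Apoa4, 0.059 for Apob and 0.061 for Apoc3, and without mouse 3 they were 0.24 for Apoa1, 0.25 for Apoa4, 0.18 for Apob, 0.26 for Apoc3, 0.088 for Mttp, 0.035 for Fabp2 and 0.084 for Cd36. Without 1 mouse they ran from -0.90 to 0.0404 for Apoa1, -0.83 to 0.25 for Apoa4, -0.47 to 0.17 for Apob, -0.61 to 0.32 for Apoc3, -0.56 to 0.10 for Mttp, -0.37 to 0.29 for Mogat2, -0.94 to 0.11 for Fabp2 and -0.88 to 0.12 for Cd36. The cause was not tested.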
